A study of Homo sapiens with 4 samples.

Results

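The regions described here are distal anchors of chromatin loops in A673 cells that carry the active histone mark H3K27ac and lack CTCF, together with the loops that start or end at them. An anchor was taken where the authors' deposited table of differential loops flags it for H3K27ac and not for CTCF, FLI1 or a promoter. This gave 135 of the 1134 anchors in that table. The members are the 792 loops, of 22680 in the authors' table of high-confidence loops, that have at least 1 of these anchors by chromosome and start. Because every anchor had to belong to a loop that the authors listed as different between genotypes, the contrast between genotypes took part in the choice. Counts per genotype are therefore given as a description. A test over all high-confidence loops is also given below, and nothing is read from its calls among the members.

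The series holds SMC1 HiChIP of STAG2-null and wild-type A673 cells, with 2 libraries of each genotype. A673 is an Ewing sarcoma cell line, and the EWS-FLI1 fusion it carries is shared by all libraries. The STAG2-null cells were Cas9-edited clones, each grown out of a single cell, per the labels, which do not give the number of clones. The labels do not say that the libraries of a genotype are separate cultures, so the spread between them may be technical.

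H3K27ac marks active enhancers and active promoters, and away from promoters it is widely used to map enhancers. Enhancers contact the promoters they act on through loops in the chromatin. Cohesin, a ring-shaped complex with SMC1 as a core subunit, extrudes loops until it meets CTCF, a DNA-binding protein that sits at the ends of many loops and at domain boundaries. STAG2, an accessory subunit of cohesin that STAG1 can replace, is recurrently mutated in Ewing sarcoma. HiChIP ligates neighbouring DNA ends in fixed nuclei and then enriches, with an antibody, the fragments that carry a chosen protein, here SMC1. The measurement is a count of paired-end tags (PETs), read pairs that join 2 anchors. A higher count can come from more cells with a contact or from more SMC1 on it, and these cannot be told apart.

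The libraries held 682724 and 698002 PETs in STAG2-null cells, against 661881 and 765017 PETs in wild-type cells. Between 20.8% and 22.8% of these lay in high-confidence loops. Across those loops the log2 counts correlated at r = 0.564 between the STAG2-null libraries and at r = 0.562 between the wild-type libraries, against 0.482 to 0.512 between genotypes, over 22680 loops that are not independent replicates. Contacts of SMC1 measure neither the STAG2 transcript nor markers of the cell type, so neither the knockout nor the line could be checked here. The flags at the anchors are the authors' own, and the signal behind them was not analysed here.

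Promoters stand at the far end of some of these loops. The authors' table names 52 genes at the far anchor of 44 listed loops. The 4 promoters below belong to loops named by rank of PETs or of fold change and have a single RefSeq entry. They are shown because the authors list their loops as different between genotypes, and they were picked after the loops' values were seen. Each runs from 250 bases before the transcription start to 50 bases after it, 5′ to 3′ on the strand of the gene, on RefSeq build GRCh38.p14. The loop coordinates are in hg19, so positions in the 2 builds were not set against each other. Capitals mark GGGCGG, the core of the site of Sp1-type factors, on either strand, where it reads CCGCCC on the opposite strand.
ARFGEF2: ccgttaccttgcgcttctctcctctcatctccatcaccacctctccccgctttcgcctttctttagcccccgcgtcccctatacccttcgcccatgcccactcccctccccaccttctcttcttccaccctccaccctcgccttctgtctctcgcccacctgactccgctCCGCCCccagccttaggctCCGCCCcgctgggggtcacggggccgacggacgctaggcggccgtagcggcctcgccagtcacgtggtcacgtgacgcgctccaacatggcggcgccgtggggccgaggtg
FADS1: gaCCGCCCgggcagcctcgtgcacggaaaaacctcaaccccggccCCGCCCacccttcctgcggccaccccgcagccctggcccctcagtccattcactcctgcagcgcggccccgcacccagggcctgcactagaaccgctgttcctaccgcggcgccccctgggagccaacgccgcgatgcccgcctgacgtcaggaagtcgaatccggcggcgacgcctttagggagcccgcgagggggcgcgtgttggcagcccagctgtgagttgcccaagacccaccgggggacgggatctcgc
NACC2: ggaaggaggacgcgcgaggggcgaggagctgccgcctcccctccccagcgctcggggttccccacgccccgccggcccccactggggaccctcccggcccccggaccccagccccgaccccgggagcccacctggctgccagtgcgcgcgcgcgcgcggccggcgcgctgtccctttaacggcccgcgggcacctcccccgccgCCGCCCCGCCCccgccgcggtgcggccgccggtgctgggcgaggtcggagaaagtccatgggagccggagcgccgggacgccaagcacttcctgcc
TUBB4B: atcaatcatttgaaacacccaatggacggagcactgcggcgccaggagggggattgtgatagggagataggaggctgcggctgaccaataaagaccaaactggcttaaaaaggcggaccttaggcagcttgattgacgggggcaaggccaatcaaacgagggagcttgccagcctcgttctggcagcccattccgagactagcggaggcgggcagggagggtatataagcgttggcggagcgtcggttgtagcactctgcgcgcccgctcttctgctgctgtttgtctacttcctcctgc

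The promoter of ARFGEF2, a guanine nucleotide exchange factor for ARF GTPases in Golgi trafficking, lies at chr20:48921461-48921760, plus strand. That of FADS1, the delta-5 fatty acid desaturase, lies at chr11:61816954-61817253, minus strand. That of NACC2, a BTB-domain transcriptional repressor, lies at chr9:136095240-136095539, minus strand, and its 2 matches overlap. That of TUBB4B, a beta-tubulin gene, lies at chr9:137241037-137241336, plus strand, and holds no match. GGGCGG was present on either strand in 45.0% of all 35116 RefSeq promoters of the same length. The string GGAAGGAA, a pair of the GGAA units that EWS-FLI1 binds in repeats, was in none of the 4, and in 3.67% of all promoters. A match is a description of the letters in this window.

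The 135 anchors were between 1519 and 27928 bp wide, with a median of 5654 bp and quartiles of 3596 and 8884 bp. The median was 5550 bp for the 214 anchors flagged for CTCF and not for H3K27ac. It was 7116 bp for the 253 promoter anchors with H3K27ac and no FLI1, and 6800 bp for the 172 FLI1-flagged anchors. The 17105 anchors of all high-confidence loops had a median width of 3621 bp. Over all 1134 anchors of the differential table, from which the rule chose, it was 5834.5 bp. The differences between classes were not tested.

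The narrowest anchor, chr7:130589893-130591411, measured 1519 bp and had 2 loops. The next ones were chr7:105409664-105411341 at 1678 bp with 3 loops and chr19:2468780-2470474 at 1695 bp with 1 loop. The widest anchor was chr9:132152633-132180560 at 27928 bp, followed by chr22:46460583-46478193 at 17611 bp with 7 loops and chr11:131678810-131696083 at 17274 bp with 23 loops. These 3 widest anchors thus had from 7 to 32 loops. Over the 135 anchors, Spearman's rho between width and number of loops was 0.699, against 0.518 over all 17105 anchors. Both measures rest on the tags of the same 4 libraries.

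A distal H3K27ac anchor had a median of 4 loops and at most 32. There were 18 anchors with 1 loop and 81 with 5 or fewer. At the other end, 30 of the 135 anchors (22.2%) had 10 or more loops, against 692 of 17105 anchors (4.05%) in the whole table. The median was 4 loops at CTCF anchors without H3K27ac, and 6 loops both at H3K27ac promoters without FLI1 and at FLI1-flagged anchors. The rule took only anchors with a listed loop, and over all 1134 anchors of the differential table the median was also 4 and the share with 10 or more was 21.3%.

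The member loops spanned between 5.05 and 1202 kb, with a median length of 37.0 kb. Their median stood beside 44.8 kb for loops of CTCF anchors without H3K27ac, 49.8 kb for those of H3K27ac promoters without FLI1 and 65.1 kb for those of FLI1-flagged anchors. It was 47.0 kb for the 5920 loops of all 1134 anchors from which the rule chose. The median over all 22680 high-confidence loops was 24.5 kb, so the members were longer than the typical loop of the series. By length, 110 loops were under 10 kb, 160 from 10 to 20 kb, 200 from 20 to 50 kb, 131 from 50 to 100 kb, 115 from 100 to 200 kb and 76 were of 200 kb or more. A member loop held a median of 24 PETs over the 4 libraries, between 10 and 256, and 498 of the 792 had at least 20. Short loops held more PETs, with Spearman's rho of -0.458 between length and PETs over the 792 loops, which share anchors and libraries.

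**Figure D1:**
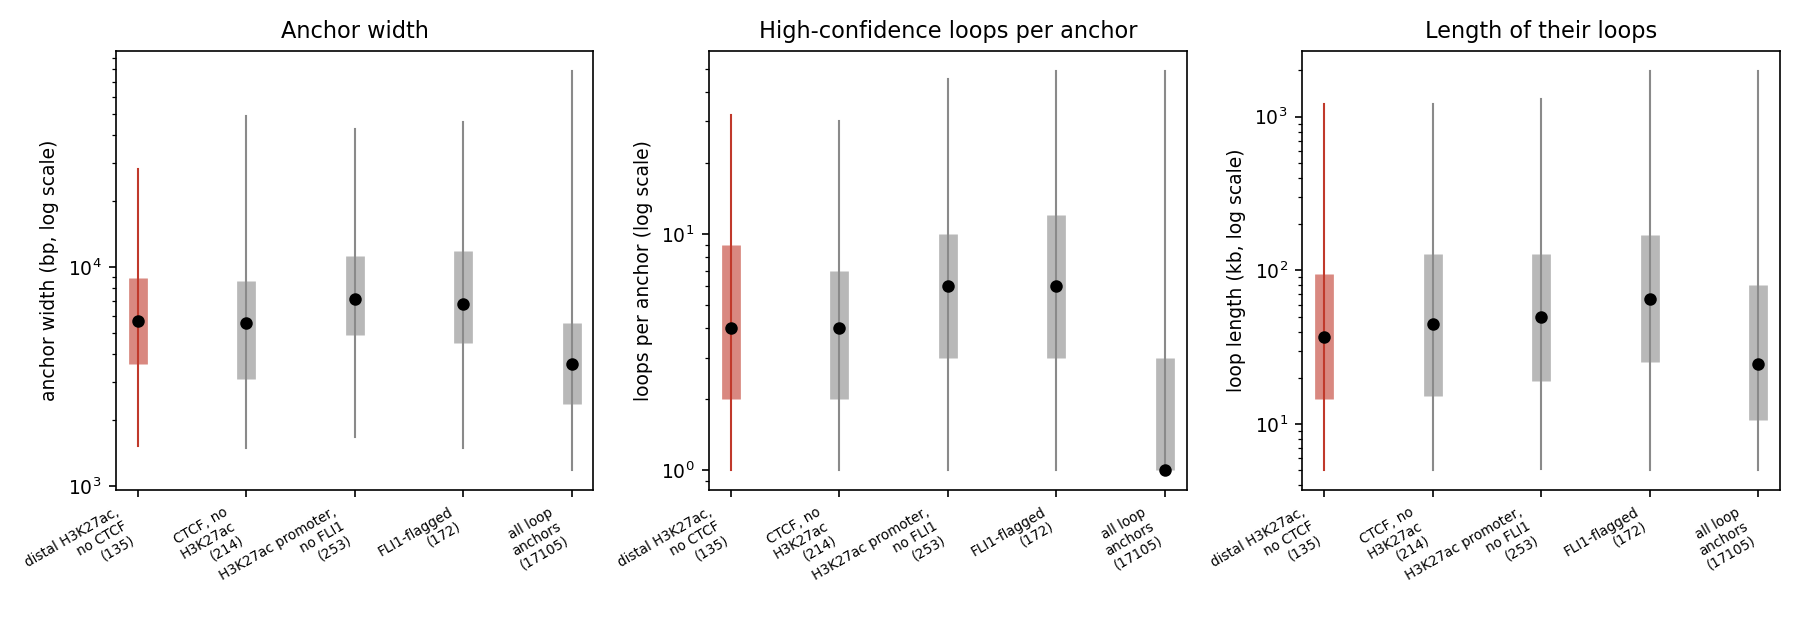
Anchor width in bp, loops per anchor and loop length in kb, each on a log scale, for distal H3K27ac anchors without CTCF (red), 3 other anchor classes and all anchors of high-confidence loops (grey). Dots are medians, thick bars run between quartiles and thin lines between the lowest and highest value. The median widths are 5654, 5550, 7116, 6800 and 3621 bp from left to right.

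The longest member loop, on chromosome 11, joined anchors starting at 131678810 and 132882716 over 1202 kb. Its count was 6 and 5 PETs in STAG2-null cells, against 4 and 5 PETs in wild-type cells. A 488-kb loop on chromosome 1 held 7 and 1 PETs in STAG2-null cells, against 3 and 6 in wild-type cells, and a 475-kb loop on chromosome 20 held 4 and 0, against 1 and 5. In both of these the genotypes overlapped, and each of the 3 rests on at most 20 PETs in all.

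The far ends of the member loops were mostly anchors whose flags were not read here. Of the 792 loops, 493 led to an anchor outside the differential table, from which the flags were taken. Another 66 led to a FLI1-flagged anchor, 61 to an H3K27ac promoter without FLI1 and 38 to a CTCF anchor without H3K27ac. A further 102 led to another flagged or unflagged anchor of the differential table. The remaining 32 joined a distal H3K27ac anchor to a second anchor of the same kind, and 48 of the 135 anchors took part in such loops. Of 134 loops in the differential table with a far anchor of another kind, 36 (26.9%) led to one with none of the flags.

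Of these 32 loops between distal H3K27ac anchors, the one with the most PETs lay on chromosome 9 and joined anchors starting at 132309992 and 132336934. Its count was 25 and 15 PETs in STAG2-null cells, against 23 and 27 in wild-type cells. A 7.53-kb loop on chromosome 18 within ATP8B1, a phospholipid flippase gene, held 23 and 22 PETs in STAG2-null cells, against 9 and 13 in wild-type cells. The genotypes overlapped in the chromosome 9 loop and lay apart in the chromosome 18 loop, which the authors list.

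The next such loops by PETs lay on chromosomes 9, 1 and 7. A 21.0-kb loop on chromosome 9 between anchors starting at 132143171 and 132152633, also listed, held 9 and 20 PETs in STAG2-null cells, against 25 and 29 in wild-type cells. A 54.4-kb loop from the second of these anchors to the one starting at 132216227 held 15 and 25 PETs in STAG2-null cells, against 22 and 12 in wild-type cells. The same anchor thus had a loop in which the genotypes lay apart and one in which they overlapped. On chromosome 1, a 13.9-kb loop held 17 and 13 PETs in STAG2-null cells, against 23 and 14 in wild-type cells, with overlap. On chromosome 7, a 6.12-kb loop starting at 130589893 held 15 and 18 PETs in STAG2-null cells, against 10 and 13 in wild-type cells, without overlap in normalised PETs.

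Together the member loops took 6758 and 7295 PETs in STAG2-null cells, against 6507 and 7386 PETs in wild-type cells. As a share of all PETs this was 1.02% ± 0.0391 in STAG2-null cells and 0.974% ± 0.0125 in wild-type cells (SD, n = 2 each). As a share of the PETs in high-confidence loops it was 4.58% ± 0.00301 in STAG2-null cells and 4.61% ± 0.0547 in wild-type cells. The first share was higher and the second lower in STAG2-null cells, the first by more than the pooled SD of the libraries, with both STAG2-null libraries above both wild-type libraries, and the second with the libraries overlapping. After scaling with TMM, which sets libraries to a common level of typical loops, the median log2 change (STAG2-null over wild type) was -0.016 over the 792 members and -0.016 over all 22680 loops.

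This level total held loops of both directions. The authors' deposited table lists 144 of the 792 loops (18.2%), against 2.87% of all high-confidence loops, which follows from the rule that chose the anchors. It lists 85 as stronger in STAG2-null cells and 59 as stronger in wild-type cells, where 1.54% and 1.32% of all loops are listed. Its adjusted p ranged from 0.00287 to 0.0997 for these loops, just inside the largest value in that table, 0.0998. Its log2 fold changes, wild type over STAG2-null, had sizes from 0.641 to 5.73 with a median of 1.54.

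The 85 listed as stronger in STAG2-null cells held 1284 and 1444 PETs in STAG2-null cells, against 534 and 580 in wild-type cells. The 59 listed as stronger in wild type held 452 and 470 PETs in STAG2-null cells, against 1042 and 1191 in wild-type cells. The 648 loops of the same anchors that are not listed held 5022 and 5381 PETs in STAG2-null cells, against 4931 and 5615 in wild-type cells. These 648 carried most of the tags, and their median log2 change was -0.016, with 291 above 0 and 357 below.

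Among the 648, both STAG2-null libraries lay above both wild-type libraries in 103 loops (15.9%), where this was so for 20.1% of all loops. They lay below in 139 loops (21.5%), against 18.6% of all loops. In edgeR's quasi-likelihood test over all 22680 loops with Benjamini-Hochberg adjustment, 1 member was called higher and 2 lower in STAG2-null cells at the threshold of 0.05, where 0.0309% and 0.022% of all loops were called. None of the 648 was called by edgeR, and at an unadjusted p under 0.05 it found 22 higher and 28 lower, where 4.25% and 4.1% of all loops were so. The anchors were chosen on this contrast, so nothing is read from these counts.

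**Figure D2:**
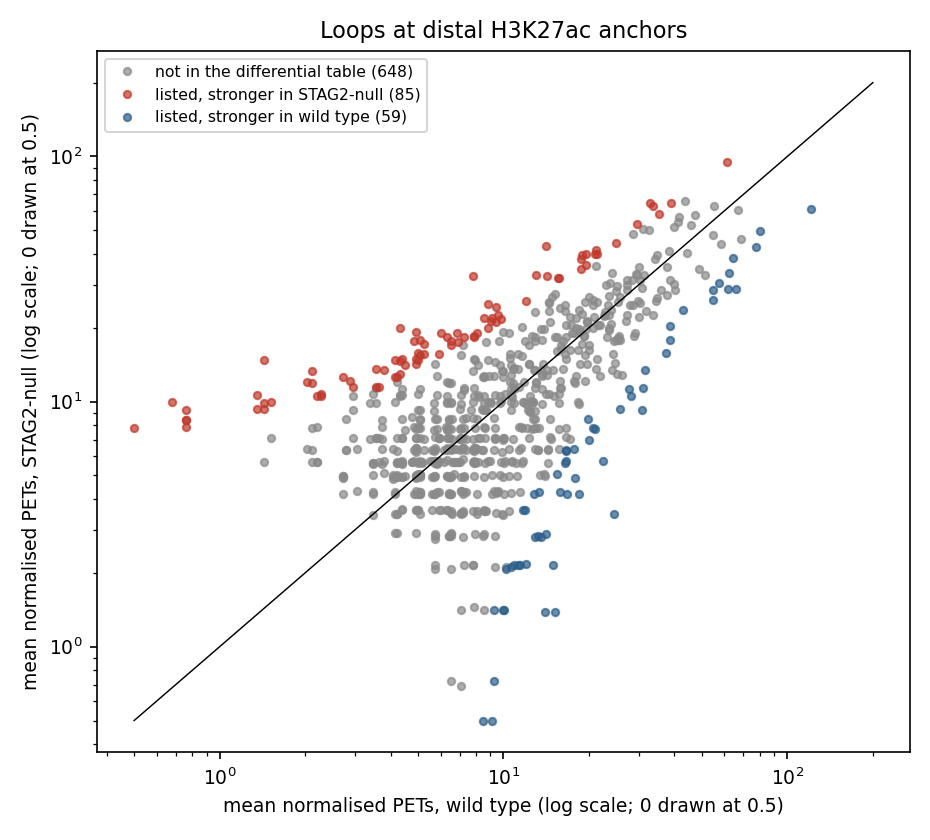
Mean normalised PETs (PETs per 1000000 scaled tags) of the 792 loops in STAG2-null cells (vertical) and wild-type cells (horizontal), on log scales with 0 drawn at 0.5. Red points are the 85 loops listed as stronger in STAG2-null cells, blue points the 59 listed as stronger in wild type and grey points the other 648, and the line marks equal values. Listed loops stand off the line because they were chosen so.

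Of the 3 loops called by edgeR, a 6.91-kb loop on chromosome 3 within XXYLT1, a xylosyltransferase gene, was the higher one. Its count was 22 and 24 PETs in STAG2-null cells, against 4 and 7 in wild-type cells, or 32.6 ± 0.764 and 7.79 ± 2.41 normalised PETs (SD, n = 2 each). The 102-kb loop to the promoters of TUBB4B and RNF208 on chromosome 9 was lower, with 1 and 4 PETs in STAG2-null cells, against 17 and 17 in wild-type cells. A 70.2-kb loop on chromosome 9 between anchors starting at 132073682 and 132152633 held 43 and 43 PETs in STAG2-null cells, against 71 and 99 in wild-type cells. The genotypes did not overlap in any of the 3. All 3 are listed by the authors, so these calls come from the contrast that chose the anchors. The far anchor of the last is FLI1-flagged and has no named gene.

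That 70.2-kb loop was also the member with the most PETs. The next was a 13.2-kb loop on chromosome 11 starting at 65253882, with 66 and 68 PETs in STAG2-null cells, against 45 and 40 in wild-type cells. An 88.7-kb loop on chromosome 9, between anchors starting at 132152633 and 132240582, held 37 and 33 PETs in STAG2-null cells, against 49 and 63 in wild-type cells. The 18.1-kb loop to the NACC2 promoter shown above held 31 and 29 PETs in STAG2-null cells, against 60 and 47 in wild-type cells. All of these are listed by the authors as different, and in each the genotypes lay apart. Over all high-confidence loops, both STAG2-null libraries lay above both wild-type libraries in 20.1% and below in 18.6%.

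Among the 8 loops with the most PETs, 4 are not listed. A 12.4-kb loop on chromosome 9 starting at 132326213 held 41 and 44 PETs in STAG2-null cells, against 47 and 46 in wild-type cells. An 18.9-kb loop on chromosome 21 held 35 and 54 in STAG2-null cells, against 37 and 40 in wild-type cells, where the genotypes overlapped. On chromosome 9, a 30.2-kb loop from the anchor starting at 132336934 to an H3K27ac promoter held 31 and 34 in STAG2-null cells, against 51 and 44 in wild-type cells. On chromosome 7, a 12.7-kb loop starting at 130579711 held 50 and 43 in STAG2-null cells, against 27 and 34 in wild-type cells. Those on chromosomes 9 and 7 lay in opposite directions.

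The largest folds in the authors' table stood on few tags. The 238-kb loop from a distal H3K27ac anchor to ARFGEF2 held 5 and 6 PETs in STAG2-null cells, against 0 and 0 in wild-type cells. This is 3.63-fold higher in STAG2-null cells, with a floor of 3 PETs over the wild-type libraries. A 144-kb loop to the promoter of GIGYF1, which encodes a GYF-domain protein of translational repression, held 7 and 7 PETs in STAG2-null cells, against 0 and 1 in wild-type cells, a ratio of 13.8 (95% exact binomial interval 2.11 to 585). The wide interval shows how little the 1 wild-type tag fixes the fold. Intervals here cover counting error only. The loops were picked by the size of their fold in the same counts, and the intervals do not allow for that choice. Folds against the floor leave out the counting error of the genotype with tags, so they are not lower bounds.

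The 49.0-kb loop to FADS1 held 4 and 8 PETs in STAG2-null cells, against 1 and 0 in wild-type cells (ratio 11.9, 1.76 to 507). A 48.6-kb loop on chromosome 19 over KDM4B and PTPRS had the same counts and led to a CTCF anchor. A 12.3-kb loop to the promoters of CRYAB, a small heat shock protein, and DIXDC1, a Wnt pathway protein, held 9 and 12 PETs in STAG2-null cells, against 1 and 1 in wild-type cells (10.4, 2.54 to 91.3). In each of these loops, which were picked by fold, both STAG2-null libraries lay above both wild-type libraries. This was so for 20.1% of all high-confidence loops.

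In the other direction, a 55.3-kb loop on chromosome 4 starting at 99610322 held 0 and 0 PETs in STAG2-null cells, against 4 and 9 in wild-type cells. This is 4.38-fold lower with the floor. A 196-kb loop on chromosome 1 starting at 201416396 held 0 and 0 PETs in STAG2-null cells, against 4 and 8 in wild-type cells, 4.05-fold lower with the floor. A 74.6-kb loop on chromosome 2, which joined 2 distal H3K27ac anchors starting at 238113213 and 238188422, held 1 and 0 PETs in STAG2-null cells, against 5 and 8 in wild-type cells. Both STAG2-null libraries lay below both wild-type libraries in all 3, which were picked by fold. This was so for 18.6% of all high-confidence loops.

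A 16.9-kb loop at the start of chromosome 7, from 148155, held 0 and 2 PETs in STAG2-null cells, against 11 and 10 in wild-type cells. A 59.8-kb loop over RAI1 and SREBF1 on chromosome 17, the second a master factor of lipid synthesis, held 0 and 2 PETs in STAG2-null cells, against 6 and 14 in wild-type cells, and led to a FLI1-flagged anchor. With the 102-kb loop of TUBB4B these are the 6 largest listed folds towards wild type. Only that of TUBB4B led to a promoter with a named gene.

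Genes at the far ends were also looked up in 3 lists of Ewing sarcoma biology. Of 23 genes that EWS-FLI1 activates, 7 were named in the differential table and 1, CAV1, stood at the far end of a member loop. Of 22 repressed or mesenchymal genes, 1 was named and 0 stood there. Of 23 neural crest and developmental genes, 11 were named and 1, RXRA, stood there.

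A 24.7-kb loop from a distal H3K27ac anchor to CAV1, the gene of caveolin-1 in caveolae of the cell membrane, held 20 and 31 PETs in STAG2-null cells, against 15 and 12 in wild-type cells. Its log2 change was 0.89 ± 0.37 (SE). A 77.0-kb loop to the promoter of RXRA, a nuclear receptor for retinoids, held 15 and 10 PETs in STAG2-null cells, against 25 and 29 in wild-type cells, with a log2 change of -1.12 ± 0.37. Both loops are listed by the authors as different, and the libraries lay apart by genotype at both genes, in opposite directions.

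The other genes given here were chosen after their values were seen. Loops with more tags in STAG2-null cells led to EPHA2, an ephrin receptor kinase, with 51 and 40 PETs in STAG2-null cells, against 28 and 17 in wild-type cells. The 12.8-kb loop to ACTB, the beta-actin gene, held 27 and 34 PETs in STAG2-null cells, against 7 and 13 in wild-type cells. A 16.6-kb loop to UNCX, a homeobox gene, held 39 and 43 PETs in STAG2-null cells, against 24 and 25 in wild-type cells. Each of these 3 loops spanned under 20 kb.

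PTP4A2, a protein tyrosine phosphatase gene, had loops to distal H3K27ac anchors on both sides, and both are listed as stronger in STAG2-null cells. The 6.41-kb loop held 38 and 51 PETs in STAG2-null cells, against 22 and 25 in wild-type cells, and the 12.9-kb loop held 6 and 15, against 3 and 4. A 9.34-kb loop to PSMB5, a catalytic subunit of the proteasome, held 14 and 11 PETs in STAG2-null cells, against 4 and 3 in wild-type cells. A 9.40-kb loop to KMT2D, a histone H3K4 methyltransferase of enhancers, held 14 and 4 PETs in STAG2-null cells, against 3 and 3 in wild-type cells, so most of its excess came from a single STAG2-null library.

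Loops with fewer tags in STAG2-null cells led to HGFAC, the protease that activates hepatocyte growth factor, with 2 and 1 PETs in STAG2-null cells, against 8 and 13 in wild-type cells. On chromosome 9, a 26.5-kb loop to CRB2, a cell polarity gene, held 15 and 26 PETs in STAG2-null cells, against 49 and 36 in wild-type cells. A 15.2-kb loop to QSOX2, a sulfhydryl oxidase gene, held 24 and 23 PETs in STAG2-null cells, against 43 and 44 in wild-type cells. A 17.1-kb loop to NRARP, a feedback inhibitor of Notch signalling, held 6 and 5 PETs in STAG2-null cells, against 13 and 16 in wild-type cells. The genotypes lay apart in all 4, which were picked after their values were seen, and 3 of the 4 lay on chromosome 9. Over all high-confidence loops, both STAG2-null libraries lay below both wild-type libraries in 18.6%.

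Some promoters had listed loops of both directions to different distal anchors. At TSPAN9, a tetraspanin gene on chromosome 12, a 29.7-kb loop held 13 and 12 PETs in STAG2-null cells, against 5 and 4 in wild-type cells. An 81.5-kb loop from the same promoter to a further distal anchor held 2 and 1 PETs in STAG2-null cells, against 5 and 11 in wild-type cells. At NTMT1, an N-terminal methyltransferase gene on chromosome 9, the 408-kb loop held 12 and 4 PETs in STAG2-null cells, against 3 and 2 in wild-type cells, while the 207-kb loop held 20 and 13, against 28 and 32. The shorter loop was the one with more tags in STAG2-null cells at TSPAN9 and the longer one at NTMT1.

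The flags of the far anchors were compared by direction as a description, leaving out the 10 listed loops that joined 2 distal H3K27ac anchors. Of 78 loops listed as stronger in STAG2-null cells, the far anchor carried H3K27ac in 51 (65.4%), against 25 of 56 (44.6%) listed as stronger in wild type. FLI1 was flagged in 18 (23.1%) of those stronger in STAG2-null cells, against 7 (12.5%) of those stronger in wild type. CTCF was flagged in 41 of 78 (52.6%), against 34 of 56 (60.7%), and a promoter in 27 (34.6%), against 18 (32.1%). Over the 999 other anchors of the differential table, 52.1% carried H3K27ac, 17.2% FLI1, 54.9% CTCF and 32.5% a promoter. These shares were not tested, since the direction was used in the choice.

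The listed loops of the 2 directions had different median lengths. The median was 10.3 kb for the 85 stronger in STAG2-null cells and 34.2 kb for the 59 stronger in wild type. Off chromosome 9 the medians were also 10.3 kb and 34.2 kb, over 84 and 33 loops. Over all 650 loops of the authors' table they were 11.96 kb and 40.9 kb, in the same order.

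The 648 loops that are not listed gave a like order in the shorter classes. Their median log2 change was 0.10 under 10 kb (68 loops), 0.07 from 10 to 20 kb (118), -0.06 from 20 to 50 kb (174), -0.20 from 50 to 100 kb (113), -0.18 from 100 to 200 kb (105) and 0.10 at 200 kb or more (70). Unlisted loops of other anchors stood at 0.13, 0.03, -0.02, -0.18, -0.15 and 0.006 in the same classes. In both sets the lowest medians were those of loops from 50 to 200 kb. Off chromosome 9 this held for members only from 50 to 100 kb, at -0.15 (95 loops). There the unlisted members of 100 to 200 kb stood at 0.10 (72 loops, 38 above 0 and 34 below), against -0.02 over 2131 other unlisted loops. The sign of the median over all 648 loops depends on the scaling of the libraries.

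Off chromosome 9 the long class stood further above 0. There 38 unlisted member loops of 200 kb or more, at 17 distal H3K27ac anchors on 6 chromosomes, held 201 and 236 PETs in STAG2-null cells, against 121 and 174 PETs in wild-type cells. The genotypes did not overlap, at 309 ± 23.3 normalised PETs in STAG2-null cells and 209.9 ± 36.6 in wild-type cells (SD, n = 2 each). Of the 38 loops, 30 had a log2 change above 0, with a median of 0.47, against a median of 0.13 over 1782 other unlisted loops of this length off chromosome 9, of which 942 were above 0. The median ranged from 0.38 to 0.81 when each library was left out in turn. Chromosome 9 was set apart after its values were seen. From 1 anchor came 7 of the 38 loops, and each loop held between 10 and 46 PETs. The anchors were chosen on this contrast. Off chromosome 9, 84 of them were higher in STAG2-null cells and 31 lower by their listed loops. Nothing is therefore read from the difference to other loops.

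The listed loops of either direction were spread unevenly over the chromosomes. Chromosome 9 had 17 of the 135 anchors and 174 of the 792 loops (22.0%, against 11.1% of all high-confidence loops). Of its 27 listed member loops, 1 was stronger in STAG2-null cells and 26 were stronger in wild type. Chromosome 7 also had 17 anchors, with 18 listed loops stronger in STAG2-null cells and 2 stronger in wild type. Over all anchors, the authors' table lists 7 loops of chromosome 9 as stronger in STAG2-null cells and 108 as stronger in wild type, and 73 and 7 loops of chromosome 7. The skew of the members thus has the direction of all listed loops of these chromosomes.

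Chromosome 19 had 7 listed loops stronger in STAG2-null cells and 0 stronger in wild type, chromosomes 3 and 16 had 5 and 0 each, and chromosome X had 4 and 0. Chromosome 4 had 0 stronger in STAG2-null cells and 4 stronger in wild type. Over all anchors, the authors' table lists 38 and 3 loops in these directions on chromosome 19 and 23 and 5 on chromosome 3. It lists 22 and 0 on chromosome 16, 7 and 0 on chromosome X and 1 and 16 on chromosome 4. The members of these 5 chromosomes thus had the direction of all listed loops there. Chromosomes 1 and 11 had both, with 11 and 5 on chromosome 1 and 10 and 5 on chromosome 11. No chromosome but 9 had more than 5 listed member loops stronger in wild type.

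**Figure D3:**
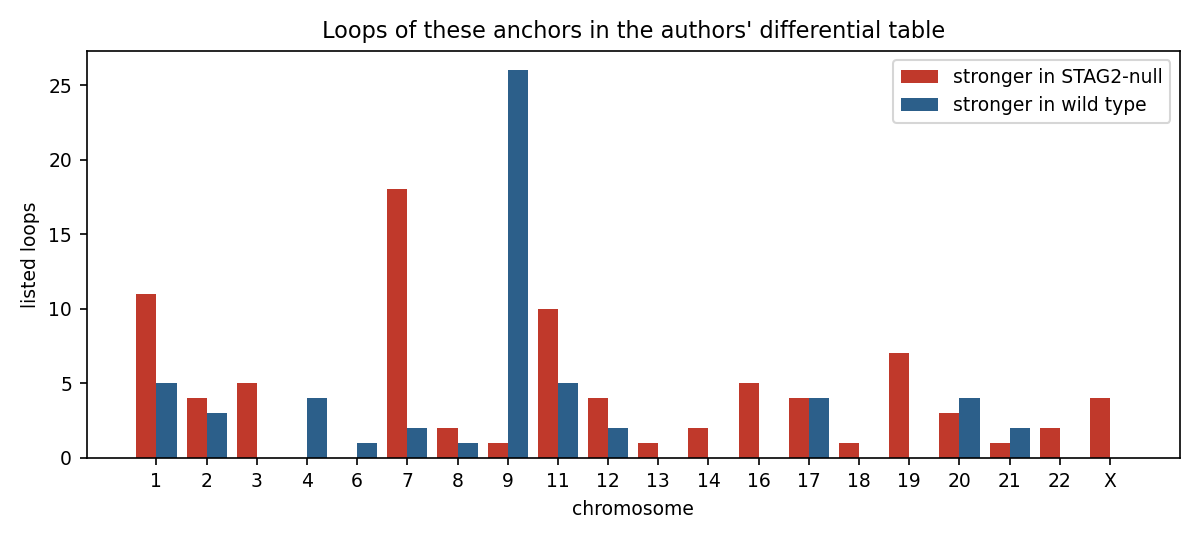
Number of loops of distal H3K27ac anchors in the authors' differential table by chromosome, stronger in STAG2-null cells (red) and stronger in wild type (blue). Chromosome 9 holds 26 of the 59 loops stronger in wild type, and chromosome 7 holds 18 of the 85 stronger in STAG2-null cells.

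The member loops of chromosome 9 held 1505 and 1472 PETs in STAG2-null cells, against 2112 and 2300 in wild-type cells. Their median log2 change was -0.56. For the 147 of them that are not listed it was -0.44, with 31 above 0, and for all 2519 high-confidence loops of chromosome 9 it was -0.37. Scaling each chromosome to its own total, in place of TMM, gave -0.20 for the 174 members and -0.08 for the 147. The same change of scaling moved the median over all 22680 loops from -0.016 to 0.081. The part of the whole chromosome in the result was not tested.

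On chromosome 7 the 83 member loops held 757 and 899 PETs in STAG2-null cells, against 513 and 549 in wild-type cells, with a median log2 change of 0.70. The 63 that are not listed stood at a median of 0.53, and all 2206 loops of chromosome 7 at 0.28. Scaled to the chromosome's own total, the 83 and the 63 stood at 0.51 and 0.34. So scaled, all high-confidence loops stood at -1.2e-05 on chromosome 9 and at 0.082 on chromosome 7. Members of both chromosomes kept their sign after this scaling, at smaller sizes. They were chosen through loops listed mostly in that direction, so nothing is read from this.

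Some distal H3K27ac anchors stood close to each other. Of the 135 anchors, 52 lay within 100 kb of another, in 23 groups. The largest group held 5 anchors over 207 kb on chromosome 9, from 132143171 to 132349940, with 86 loops, 10 of them listed and 7 between its own anchors. Its count was 883 and 867 PETs in STAG2-null cells, against 1218 and 1305 in wild-type cells, or 1241 ± 63.3 and 1811 ± 59.6 normalised PETs (SD, n = 2 each). The log2 change was -0.54, with 11 loops above 0 and 75 below.

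The next groups by number of loops held anchors of both directions. On chromosome 12, 3 anchors from 3211532 to 3342061, near TSPAN9, had 40 loops with 365 and 381 PETs in STAG2-null cells, against 330 and 425 in wild-type cells. On chromosome 1, 3 anchors from 145024108 to 145098560 had 37 loops with 275 and 332 PETs in STAG2-null cells, against 261 and 329 in wild-type cells. Their log2 changes were -0.03 and 0.03, and in both groups 1 anchor was higher and 2 were lower in STAG2-null cells by their listed loops.

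The anchor with the most loops, 132152633 to 132180560, belongs to that group. Its 32 loops, 7 of them listed, held 324 and 323 PETs in STAG2-null cells, against 499 and 572 in wild-type cells, a log2 change of -0.74. Its 25 unlisted loops alone held 184 and 180, against 252 and 282, a log2 change of -0.57. The sparse pairs of this anchor, those with at most 4 PETs over all libraries, stood at -0.58, so contacts outside the called loops were lower by a like amount.

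The anchors starting at 132336934 and 132309992 in the same group had 23 and 19 loops. The first held 279 and 259 PETs in STAG2-null cells, against 344 and 356 in wild-type cells, and the second held 176 and 158, against 224 and 253. On chromosome 11, the anchor starting at 131678810 with 23 loops held 188 and 218 PETs in STAG2-null cells, against 162 and 212 in wild-type cells. On chromosome 20, the anchor starting at 47295202 with 19 loops held 170 and 175 in STAG2-null cells, against 164 and 214 in wild-type cells. In normalised PETs the genotypes overlapped at the chromosome 11 anchor and lay apart at the other ones, where that of chromosome 20 had the smallest log2 change, -0.15.

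**Figure D4:**
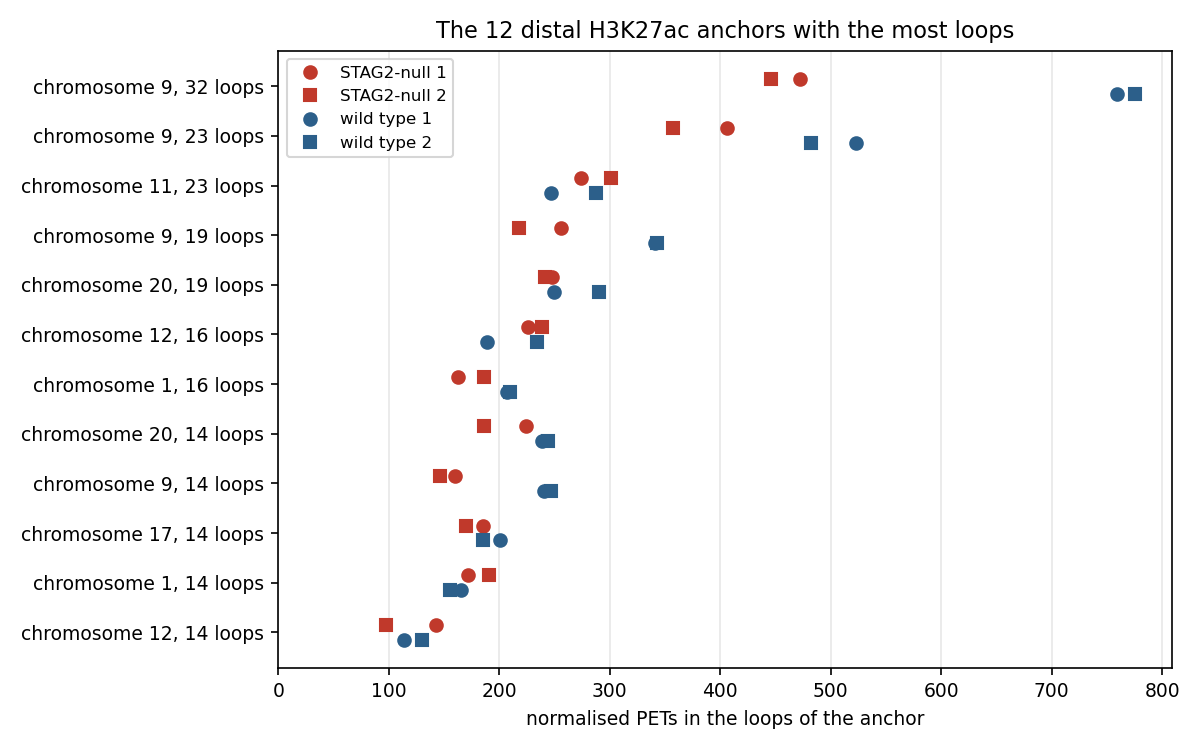
Normalised PETs in the loops of each of the 12 distal H3K27ac anchors with the most loops, for each library of STAG2-null cells (red) and wild-type cells (blue). The 4 anchors on chromosome 9 have both STAG2-null libraries left of both wild-type libraries, and the anchor with 32 loops lies at 472 and 446 in STAG2-null cells, with wild-type cells at 759 and 775.

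The other loops of an anchor were set beside its listed ones. Of the 135 anchors, 124 had 1 listed loop, 7 had 2 and 4 had more, up to 7, and 18 had no other loop. By their listed loops, 85 anchors were higher in STAG2-null cells, 47 lower and 3 had both directions. At the 68 higher anchors with other loops, the other loops summed to a log2 change above 0 in 53 and below 0 in 15, with a median of 0.26. At the 46 lower anchors with other loops they were above 0 in 7 and below 0 in 39, with a median of -0.22.

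These medians were far smaller than those of the listed loops at the same anchors, 1.44 and -1.60. Off chromosome 9 the 30 lower anchors had a median of -0.18, with 6 above 0 and 24 below, and the 16 on chromosome 9 had a median of -0.42, with 1 above 0. Sparse pairs of the same anchors stood at a median of 0.18 at higher anchors and -0.54 at lower ones. Listed loops, other loops and sparse pairs of an anchor come from the same libraries and the same region, and the part of the region in the result was not tested.

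**Figure D5:**
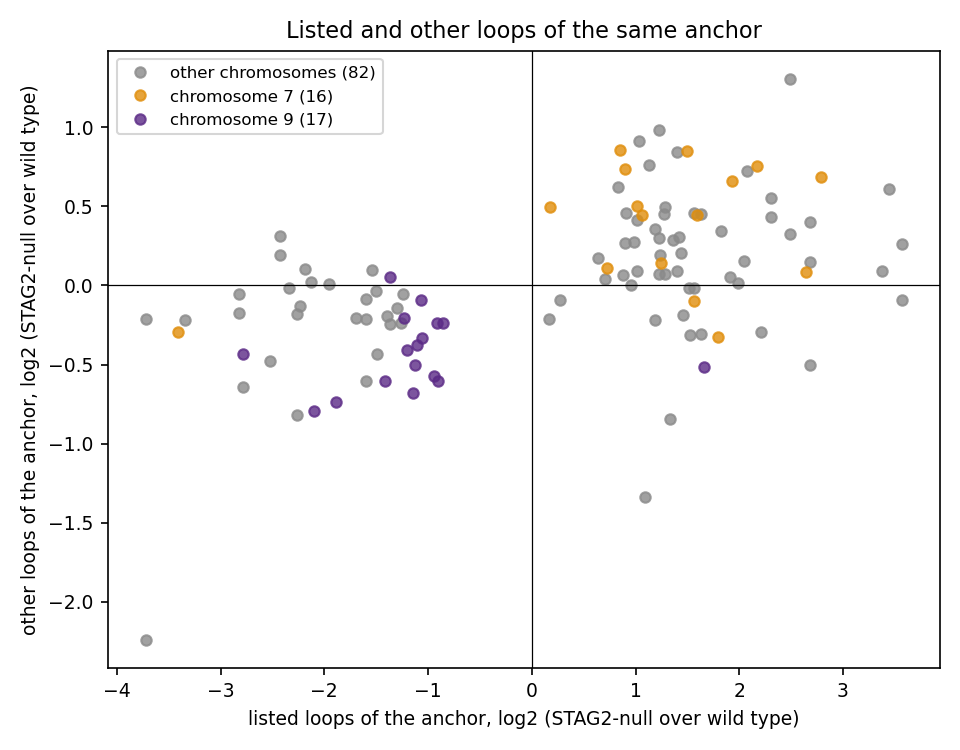
Log2 change (STAG2-null over wild type) of the summed listed loops (horizontal) and of the summed other loops (vertical) at 115 distal H3K27ac anchors, those that have both values. Purple points are the 17 anchors on chromosome 9, orange points the 16 on chromosome 7 and grey points the other 82. On chromosome 9 the other loops lie below 0 at 16 of 17 anchors, and on chromosome 7 they lie above 0 at 13 of 16.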

How the data were processed

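SMC1 HiChIP gave 4 libraries, 2 per genotype, grouped as the labels give the genotype. The authors deposited a count of PETs per anchor pair and library, and a table of high-confidence loops with counts, per the file headers. Their differential table gives a log2 fold change, wild type over STAG2-null, and, per the file headers, a p-value after independent hypothesis weighting. Per the submitters' processing notes, HiC-Pro and hg19 were used. Column names point to mango as loop caller, with settings not given in the sources used here. All 22680 loops were found in the library files with equal counts. Coordinates are 1-based.

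All loops were tested with edgeR 4.0.16 (quasi-likelihood, R 4.3.3) on genotype alone, with TMM scaling, totals over all pairs and Benjamini-Hochberg adjustment at 0.05, after a check on simulated data. Normalised PETs are PETs per 1000000 scaled tags. Folds against 0 use a floor of 3 PETs over the group. Replicate numbers were not used to pair the libraries (correlation of deviations of same-numbered libraries 0.0119). With few tags per loop, this value cannot exclude a pairing. The members, lists and the rule for named loops (most PETs, largest listed folds, both ends members, longest) and anchors (most loops, widest, narrowest) were chosen with earlier results of these data known. Of the loops this rule names, 1 is not reported here. DESeq2 1.42.0 was an alternative, beside other scalings and filters.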

Additional observations from a re-analysis of the deposited data

How the results depend on the processing

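Calls among the members rested on few loops and changed with the setting. With plain library totals, with scaling per chromosome and with DESeq2, 0 members were called in either direction. Over all loops, plain totals and DESeq2 called 0 higher and 0 lower (1094 and 702, and 71 and 91, at an unadjusted p under 0.05), and scaling per chromosome called 2 higher and 0 lower, against 7 higher and 5 lower. A minimum of 20 PETs, in high-confidence loops or in all pairs, called 3 members higher and 6 lower, and 13 loops lower in all. The libraries were not treated as paired by their numbers, and a replicate block called 2 members higher and 3 lower, and 8 loops lower over all. Leaving out 1 library called 0 members each time, and over all loops between 0 and 3 higher and between 0 and 4 lower. All 3 called members lost the call without any 1 library and kept it with 20 PETs and with the block.

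The median log2 change of the 792 members was 0.046 with plain totals, 0.114 per chromosome, 0.0279 and 0.027 with 20 PETs in loops and in all pairs, and between -0.0673 and 0.0337 without a library. That of the 648 unlisted loops was 0.0458, 0.0944, -0.0442 and -0.045, and between -0.0852 and -0.0229 without a library. Over all loops these scalings moved the median to 0.0461 (plain) and 0.0806 (per chromosome), so the sign of these medians follows the scaling. The difference in the share of PETs was 0.0432 percentage points, and -0.0299 as a share of high-confidence PETs. The cause of these changes was not tested. Of 280 values of single loops under alternatives, 242 kept their direction and side of the threshold, and none changed sign among the called ones. A call was lost in 21, all of them values of the called loops. The other named loops were not called in the main setting, so keeping their side of the threshold says little. Sums per anchor were not among these values. Loops of 10 to 20 PETs limit what these libraries can show.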
